A study of Saccharomyces cerevisiae with 11 samples.

Results

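The thiamine genes described here are 10 of the 6256 genes measured on these arrays of budding yeast. They are THI2, THI4, THI5, THI6, THI11, THI12, THI13, THI20, THI73 and PHO3, chosen by name for thiamine synthesis, its regulator THI2, the transporter-like THI73 and the thiamine-regulated phosphatase PHO3. The choice went by gene name and not by a cutoff on measured values, but earlier results of these data were known when it was made. Under those names 9 were found, and THI73 was found by its systematic name, YLR004C, through the RefSeq table of assembly R64. Total RNA was hybridised to 11 Agilent whole-genome arrays with 2 colours. The experimental RNA came from strains that each lack 1 histone chaperone gene (asf1-del, chz1-del, nap1-del, rtt106-del or vps75-del) after 10 µM trichostatin A (TSA) for 1 hour, from the same 5 strains without TSA, and from the wild type parent BY4742 with TSA. TSA inhibits histone deacetylases, and histone chaperones carry histones to and from DNA. The reference RNA on every array was untreated wild type. All strains, wild type included, are BY4742, a laboratory strain of mating type alpha that lacks HIS3, LEU2, LYS2 and URA3, and all grew at 30 °C in rich glucose medium. Each strain and treatment has 1 array, so the 2 arrays of a deletion strain, with and without TSA, stand in as its replicates and may share a culture.

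Thiamine pyrophosphate, the active form of vitamin B1, is the cofactor of enzymes such as pyruvate decarboxylase and transketolase. Yeast builds thiamine from a pyrimidine part, made by the near-identical THI5, THI11, THI12 and THI13 products, and a thiazole part, made by Thi4. Thi20 phosphorylates the pyrimidine part and Thi6 joins both parts. The regulator Thi2 helps to switch these genes on when thiamine is scarce and they are low when the medium supplies it, as rich medium does. PHO3 encodes a secreted acid phosphatase that frees thiamine from its phosphates, and THI73 encodes a transporter-like membrane protein whose gene is known to be controlled by thiamine.

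Values are log2 ratios of experimental over reference RNA after loess within each array, with 50 added to each signal, averaged over the 2 repeat measurements of each probe. They run opposite to most of the deposited ratio columns. The direction of each deletion array came from its deleted gene, which stood at −2.86 to −4.53 on its 10 arrays. The labels give the same dyes on every array, but the nap1-del array without TSA ran the other way in its columns and was turned. Wild type lacks such a gene, so its array can only be said to run the likely way. A deleted gene also cannot tell the 2 vps75-del arrays apart, and the series matrix holds them under exchanged labels, so the TSA results of PHO3 and THI5 are given both ways. A signal counted as detected above 2 times the median of the 4 marker genes missing from BY4742. The experimental signal of the 10 genes was detected in 87 of 110 readings and the reference signal in 107, and the repeat measurements differed by a median of 0.07 and at most 0.74. Undetected experimental signals fell on the TSA arrays of nap1-del (7 of 10 genes), asf1-del (5), vps75-del (5) and chz1-del (4), and for THI13 alone on the arrays of nap1-del and vps75-del without TSA. A ratio with an undetected experimental signal sets only a limit on the level in that RNA. On the asf1-del array with TSA the floor of the experimental channel was 5.50 times that of the reference channel, against 1.66 to 2.90 on the others. The 4 alpha-specific genes checked were detected on all 11 arrays. Of 5 genes of the other mating type, MFA1 was detected on 11 arrays, BAR1 on 10, STE2 on 7, MFA2 on 4 and AGA2 on 1, and LYS2 passed the detection limit on 3 arrays and LEU2 on 1. The array of chz1-del without TSA stood apart, with 6.2% of its detected genes at least 2-fold from the reference against 0.304% to 2.97% on the others. It is also the one array whose treatment label names glucose. Across genes, the deviations of the 2 chz1-del arrays correlated at −0.18, against 0.38 to 0.67 within the pairs of the other strains. Counts of genes called between strains are therefore given with and without the chz1-del pair, and so are the differences of some genes.

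**Figure D1:**
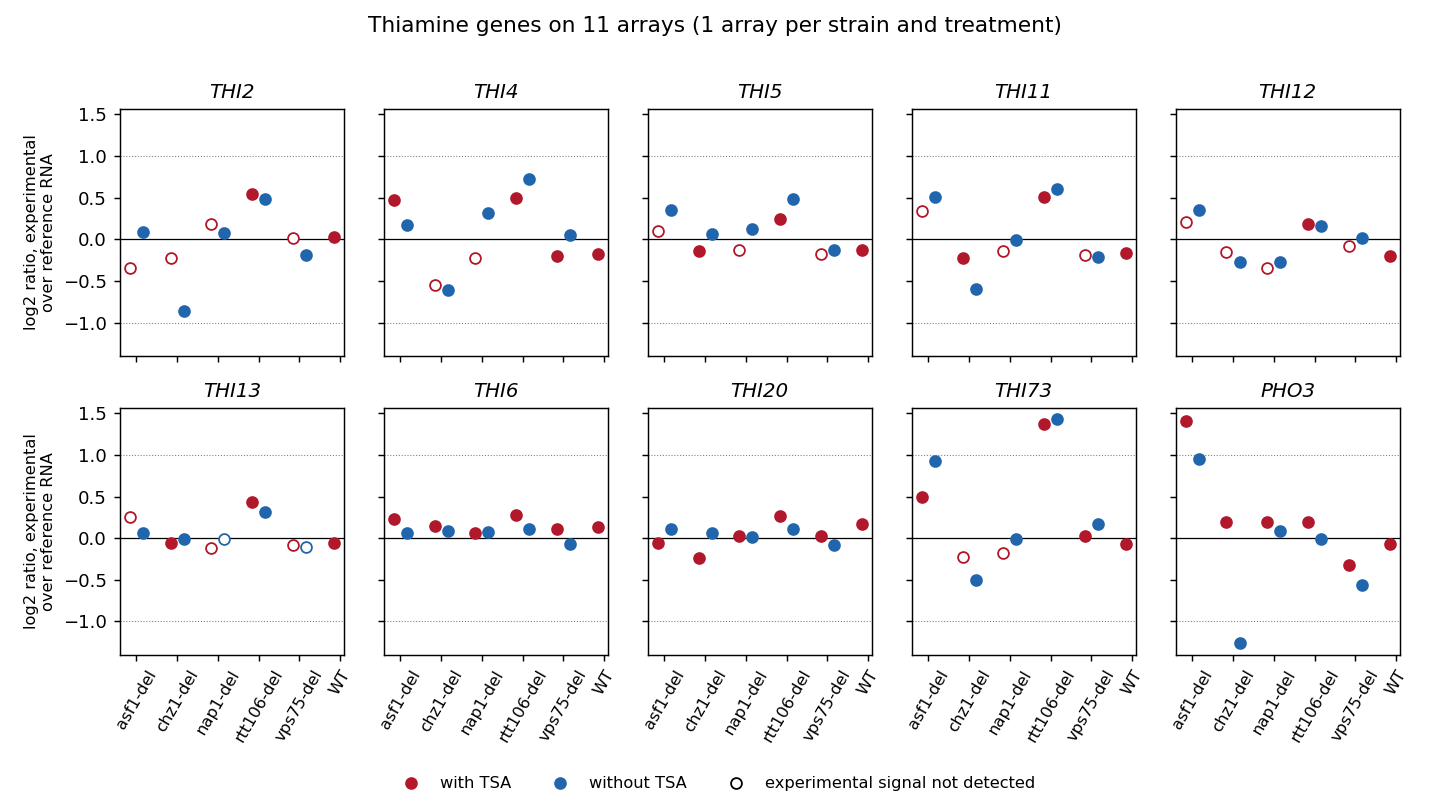
Log2 ratio of experimental over reference RNA (vertical axis) for the 10 thiamine genes on 11 arrays, by strain, with TSA (red) left of without TSA (blue). Open circles have an undetected experimental signal and dotted lines mark 2-fold. THI73 stood highest in rtt106-del (1.37 with TSA, 1.43 without) and PHO3 in asf1-del (1.41 with TSA, 0.95 without), and THI6 and THI20 stayed between −0.24 and 0.28 on every array.

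Few of these genes moved by 2-fold. Of 107 readings with a signal detected in either channel, 4 were at least 2-fold from the reference. These were PHO3 higher in asf1-del with TSA, PHO3 lower in chz1-del without TSA, and THI73 higher in rtt106-del with and without TSA. Over all detected genes the share past 2-fold was 2.97% for asf1-del with TSA and 1.85% without, 1.11% for chz1-del with TSA and 6.2% without, and 0.304% for nap1-del with TSA and 0.695% without. It was 1.98% for rtt106-del with TSA and 1.28% without, 1.95% for vps75-del with TSA and 1.16% without, and 0.329% for wild type with TSA. There was no replicate of any strain and treatment, so these counts carry no test.

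THI73, the transporter-like gene, showed the most distinct pattern. In rtt106-del its experimental signal was 364.2 with TSA and 378.5 without, against reference signals of 91.0 and 92.2 on these arrays. Its log2 ratio there was 1.37 with TSA and 1.43 without. In asf1-del it was 0.50 with TSA and 0.93 without. Both rtt106-del values lay above those of every other deletion array, and both asf1-del values above those of the remaining 3 strains. It was 0.03 with TSA and 0.17 without in vps75-del, and −0.18 with TSA and −0.01 without in nap1-del. In chz1-del it was −0.22 with TSA, where the experimental signal was not detected, and −0.50 without, where the repeat measurements differed by 0.67. Wild type with TSA stood at −0.07. Both vps75-del values lay above both nap1-del values, and those above both chz1-del values, but the repeat measurements on nap1-del with TSA differed by 0.21, and these neighbouring strains were not tested against each other.

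Each deletion was tested against the mean of the other 4 in limma, with strain and TSA terms and Benjamini-Hochberg adjustment over 5916 genes. These 5 contrasts use the same arrays and are not independent. THI73 was higher in rtt106-del than in the other deletions by 1.31 (SE 0.136, adjusted p = 0.00422), or 2.48-fold. Without the chz1-del pair the difference was 1.16 (SE 0.0940, adjusted p = 0.000193). With only 1 of the rtt106-del arrays it was 1.28 to 1.34, with adjusted p of 0.144 without the TSA array and 0.131 without the other. In this contrast 1 of the 10 thiamine genes passed the test, against 2.21% of all genes, and without the chz1-del pair 6 of 10 passed, all higher, against 14.4% of all genes. The genes on either side of THI73, CMS1 and SSL1, stood between −0.19 and 0.13 on the rtt106-del arrays.

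**Figure D2:**
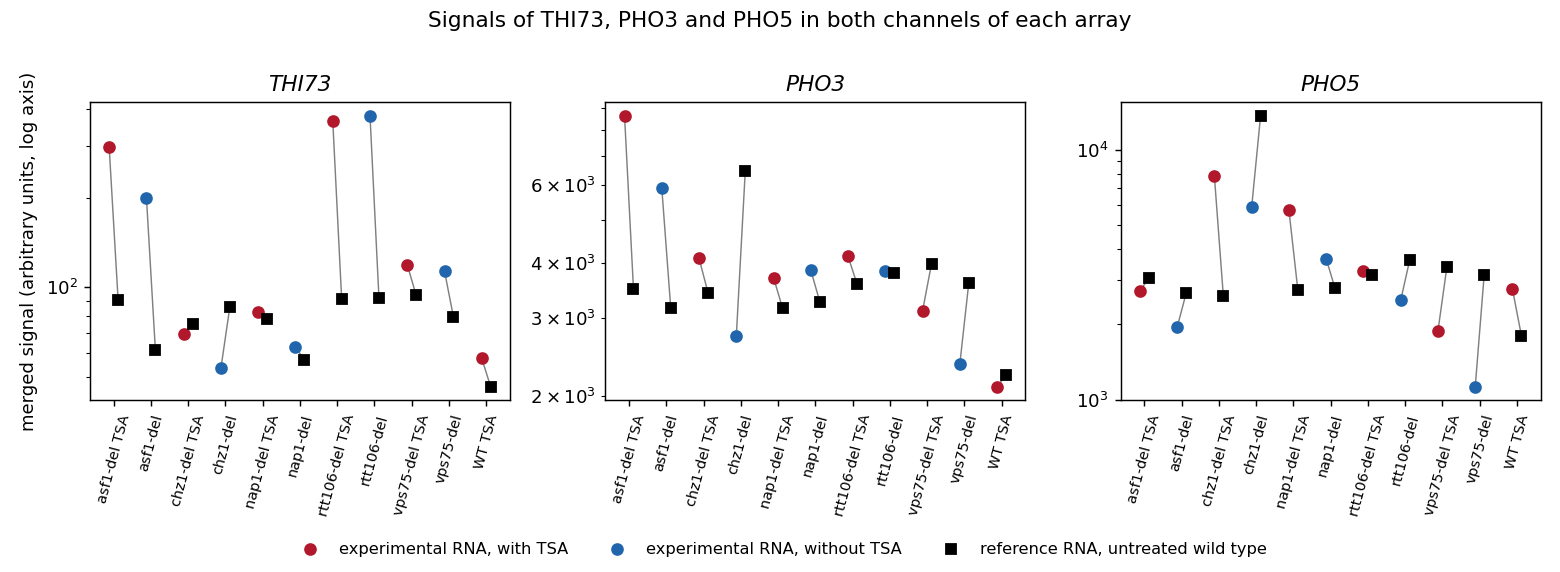
Merged signal (vertical log axis, arbitrary units) of THI73, PHO3 and PHO5 in the experimental RNA (circles, red with TSA and blue without) and in the untreated wild type reference (black squares) of each array, joined by lines. In rtt106-del the THI73 signal was 364.2 with TSA and 378.5 without, against 91.0 and 92.2 in the reference, and on the chz1-del array without TSA the reference signals of PHO3 (6459) and PHO5 (13663) exceeded those of all other arrays. Signals are not scaled between arrays, and the chz1-del array without TSA was the brightest.

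The same strain held the highest values of several synthesis genes. All 10 estimates of rtt106-del against the other 4 deletions were above 0, with a median of 0.37, while 48.1% of all genes were above 0 and their median was −0.01. PHO3 was the lowest of the 10, at 0.00098. At an unadjusted p under 0.05 there were 7 of the 10, against 14.8% of all genes, and after adjustment THI73 alone passed. Both rtt106-del arrays lay above all arrays of the other deletions for THI2, THI4, THI11, THI13, THI20 and THI73, or 6 of 10 genes, against 8.1% of all genes. For THI20, THI11 and THI4 the margin over asf1-del was smaller than repeat measurements differed. THI20 stood at 0.114 against 0.110, both without TSA, and THI4 at 0.491 against 0.467, both with TSA. THI11 stood at 0.507 with TSA, against 0.503 in asf1-del without. The repeats differed by 0.20 for THI20 and 0.11 for THI4 in asf1-del, and by 0.17 for THI11 in rtt106-del.

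THI4, the thiazole synthase, stood at 0.49 with TSA and 0.73 without in rtt106-del. It was 0.47 with TSA and 0.18 without in asf1-del, −0.55 with TSA and −0.61 without in chz1-del, −0.22 with TSA and 0.31 without in nap1-del, and −0.20 with TSA and 0.05 without in vps75-del, and −0.18 in wild type with TSA. With TSA the values of rtt106-del and asf1-del were close. Against the other 4 deletions THI4 differed by 0.68 in rtt106-del (SE 0.157, adjusted p = 0.0891), and by 0.51 without the chz1-del pair (adjusted p = 0.0422).

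THI2, the regulator, stood at 0.55 with TSA and 0.49 without in rtt106-del. Elsewhere it lay between −0.86, in chz1-del without TSA, and 0.18, in nap1-del with TSA. The difference of rtt106-del from the other 4 deletions was 0.68 (SE 0.181, adjusted p = 0.129), and 0.55 without the chz1-del pair (adjusted p = 0.0212). Of its neighbours, ERT1 stood at 0.05 with TSA and −0.04 without in rtt106-del, and VVS1 at 0.50 with TSA and 0.35 without. VVS1 stood at 0.63 with TSA and 0.08 without in asf1-del.

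The pyrimidine genes THI5, THI11, THI12 and THI13 lie 4 to 9 annotated genes from a chromosome end in the RefSeq annotation. Their coding sequences are near-identical, and whether the probes tell them apart was not tested. Their mean was 0.34 with TSA and 0.39 without in rtt106-del, and 0.22 with TSA and 0.32 without in asf1-del. It was −0.14 with TSA and −0.21 without in chz1-del, −0.18 with TSA and −0.04 without in nap1-del, −0.13 with TSA and −0.11 without in vps75-del, and −0.14 in wild type with TSA. All 4 genes were above 0 on the 4 arrays of rtt106-del and asf1-del, but in asf1-del with TSA none of the 4 had a detected experimental signal.

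THI11 was the highest of the 4 in rtt106-del, at 0.51 with TSA and 0.60 without, with experimental signals of 171.5 and 194.6 against reference signals of 76.9 and 85.7. It stood at 0.34 with TSA and 0.50 without in asf1-del, −0.23 with TSA and −0.60 without in chz1-del, −0.14 with TSA and −0.0049 without in nap1-del, and −0.19 with TSA and −0.21 without in vps75-del. In rtt106-del against the other 4 deletions THI11 differed by 0.62 (SE 0.125, adjusted p = 0.0572), THI13 by 0.39 (adjusted p = 0.112) and THI5 by 0.35 (adjusted p = 0.126). Without the chz1-del pair these were 0.51, 0.38 and 0.34, with adjusted p of 0.00499, 0.0238 and 0.0319. THI12 differed by 0.24 (adjusted p = 0.298), and by 0.19 without that pair (adjusted p = 0.143).

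THI20, whose product phosphorylates the pyrimidine part, and THI6, whose product joins both parts, stayed near the reference. THI6 ranged from −0.07 to 0.28 over the 11 arrays and THI20 from −0.24 to 0.27, and both were detected on all of them. In rtt106-del they differed from the other 4 deletions by 0.11 for THI6 (adjusted p = 0.673) and 0.21 for THI20 (adjusted p = 0.479). The neighbours of THI4 (SKN1 and ENP2), THI6 (CBP3 and LEA1) and THI20 (GPM3 and PSH1) stood between −0.24 and 0.05 on the rtt106-del arrays.

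**Figure D3:**
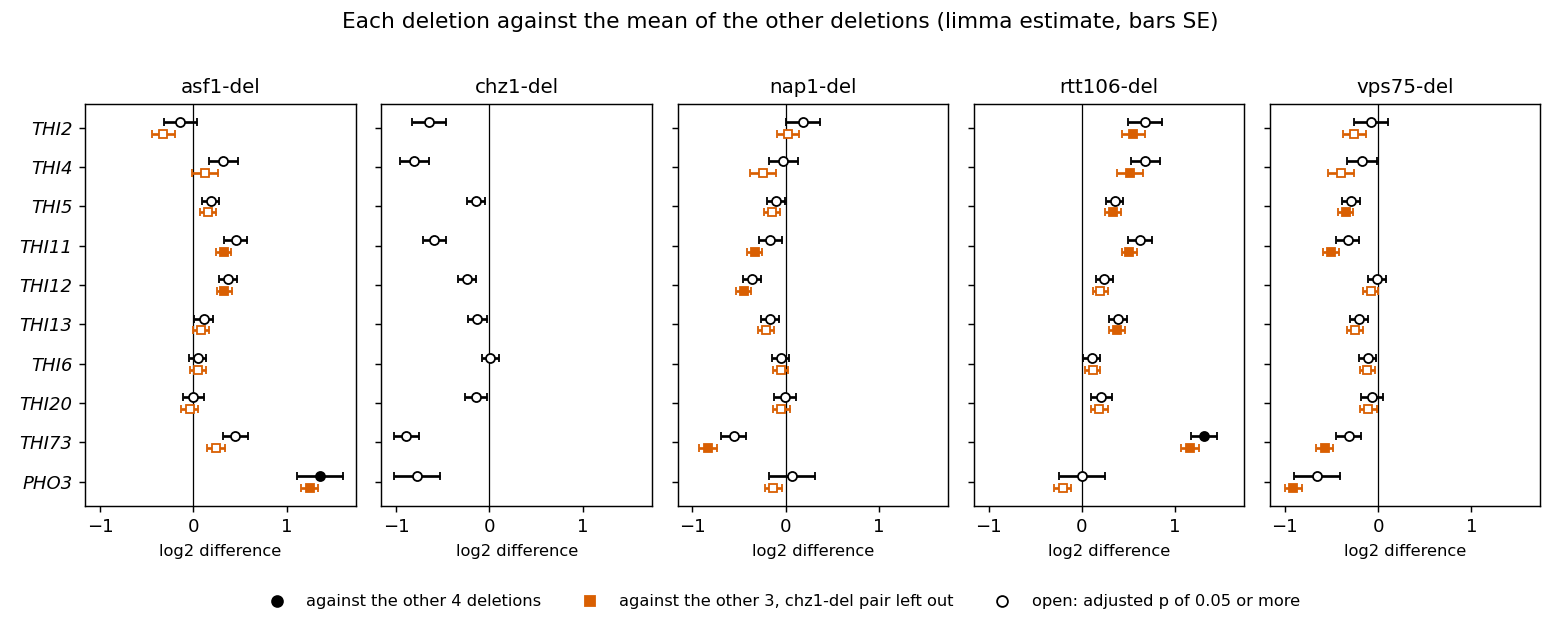
Difference of each deletion from the mean of the other deletions (horizontal axis, log2, bars SE of the limma fit) for the 10 thiamine genes, against the other 4 (black circles) and without the chz1-del pair (orange squares). Filled symbols have an adjusted p under 0.05. With all arrays 2 symbols are filled, THI73 in rtt106-del (1.31) and PHO3 in asf1-del (1.36), and without the chz1-del pair 16 are.

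PHO3, the acid phosphatase, was high in asf1-del. Its experimental signal there was 8636 with TSA and 5919 without, against reference signals of 3498 and 3169, or log2 ratios of 1.41 with TSA and 0.95 without. It was 0.20 with TSA and −1.26 without in chz1-del, 0.19 with TSA and 0.09 without in nap1-del, 0.19 with TSA and −0.01 without in rtt106-del, and −0.32 with TSA and −0.56 without in vps75-del. Wild type with TSA stood at −0.07. Both asf1-del values lay above those of all other deletion arrays, as did those of THI12, so that 2 of 10 genes did so against 7.47% of all genes. For THI12 the asf1-del value with TSA, 0.20, had an undetected experimental signal and lay close to the 0.19 of rtt106-del with TSA.

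Against the other 4 deletions PHO3 was higher in asf1-del by 1.36 (SE 0.246, adjusted p = 0.0448), or 2.57-fold. In this contrast 1 of 10 genes passed, against 1.91% of all genes. The call lay close to the threshold and was lost in 13 of 18 other settings, with differences between 1.11 and 1.47 in all of them. With the vps75-del arrays exchanged, as in the series matrix, the adjusted p was 0.0875. Without the chz1-del pair the difference was 1.25 (SE 0.0918, adjusted p = 0.000152), and THI11 (0.33, adjusted p = 0.0355) and THI12 (0.33, adjusted p = 0.0328) passed as well, 3 of 10 against 11.9% of all genes. With all arrays THI11 differed by 0.45 (adjusted p = 0.148), THI12 by 0.37 (adjusted p = 0.132) and THI73 by 0.45 (adjusted p = 0.17). With median centring in place of loess all 3 passed, THI11 at 0.81 (adjusted p = 0.0307), THI12 at 0.72 (adjusted p = 0.0289) and THI73 at 0.76 (adjusted p = 0.0249). They passed as well on the deposited log ratio, with differences of 1.17 to 1.28, and on the series matrix, with 1.15 to 1.27.

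PHO5, the neighbour of PHO3 and a close relative that is controlled by phosphate, had other values in asf1-del. Its ratio there was −0.04 with TSA and −0.38 without, and its difference from the other 4 deletions was −0.07 (SE 0.421, adjusted p = 0.949). In vps75-del both genes stood below the reference, PHO5 at −0.79 with TSA and −1.40 without. The gene on the other side of PHO3, TIM12, stood at −0.01 with TSA and −0.18 without in asf1-del.

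On the array of chz1-del without TSA, where the PHO3 ratio was low, its unscaled reference signal was 6459, against 2236 to 3990 on the other 10 arrays. The reference signal of PHO5 was 13663 on that array against 1803 to 3608 on the others. The unscaled experimental signals there, 2736 for PHO3 and 5889 for PHO5, lay within the range of the other arrays. These signals were not scaled between arrays, and that array was the brightest. Its median reference signal over all genes was 1097, against 358 to 840 on the others. The median experimental signal was 1081, against 376 to 869. The ranges of unscaled signals therefore do not show which channel made the PHO3 ratio low, and signals scaled to these medians were not tested.

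In chz1-del 9 of 10 estimates against the other 4 deletions were below 0, with a median of −0.41. In vps75-del 10 of 10 were below 0 (median −0.19) and in nap1-del 8 of 10 (median −0.08), while in asf1-del 9 of 10 were above 0 (median 0.25). Over all genes 47.9% were above 0 in chz1-del and in nap1-del, 49.3% in vps75-del and 49.8% in asf1-del. As each strain is set against the mean of the other 4, high values in rtt106-del and asf1-del lower the estimates of the remaining strains. In chz1-del THI73 differed by −0.89 (SE 0.136, adjusted p = 0.0741), THI4 by −0.81 (adjusted p = 0.162), PHO3 by −0.77 (adjusted p = 0.245), THI2 by −0.65 (adjusted p = 0.209) and THI11 by −0.59 (adjusted p = 0.176). None of the 10 passed the test, and 0.101% of all genes did. THI73 passed under median centring (−0.99, adjusted p = 0.0286), on the deposited log ratio (−1.46, adjusted p = 0.0254) and with normexp (−0.95, adjusted p = 0.0494), and THI11 on the deposited log ratio (−1.18, adjusted p = 0.047). Both chz1-del arrays lay below all other deletion arrays for THI4, THI11 and THI73, or 3 of 10 genes, against 3.18% of all genes. On the TSA array THI4 and THI73 had an undetected experimental signal. With that array alone, leaving out the chz1-del array that stood apart, none passed, and the differences were −0.65 for THI73, −0.69 for THI4, −0.17 for PHO3, −0.32 for THI2 and −0.36 for THI11.

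In nap1-del and vps75-del no thiamine gene passed the test against the other 4 deletions, and 0% and 2.91% of all genes did. At an unadjusted p under 0.05 there were 2 of 10 in nap1-del, THI73 and THI12, and 3 in vps75-del, THI5, THI11 and PHO3, against 8.99% of all genes in either contrast. Without the chz1-del pair 3 of 10 were lower in nap1-del, against 7.35% of all genes called either way, with THI73 at −0.83 (adjusted p = 0.0027), THI12 at −0.45 and THI11 at −0.33. On the nap1-del array with TSA the experimental signals of all 3 were undetected. Without TSA the repeat measurements of THI12 differed by 0.48 there. In vps75-del 4 of 10 were lower, against 9.13% of all genes, with PHO3 at −0.91 (adjusted p = 0.000312), THI73 at −0.57, THI11 at −0.50 and THI5 at −0.35. The experimental signals of THI11 and THI5 were undetected in vps75-del with TSA. For THI73 the differences in both strains are measured against a mean that holds the high rtt106-del values. On their own arrays THI73 in vps75-del stood at 0.03 with TSA and 0.17 without, above the reference.

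No shift of these genes from wild type shared by the 5 deletions without TSA was called. None of the 10 passed limma's test of the mean against 0 after adjustment, and 0% of all genes did. At an unadjusted p under 0.05 there were 0 of the 10, against 7.12% of all genes. THI73 averaged 0.40 ± 0.770 (SD, n = 5; adjusted p = 0.697), carried by rtt106-del and asf1-del. PHO3 averaged −0.16 ± 0.821 (adjusted p = 0.87), with 0.95 in asf1-del and −1.26 in chz1-del, and 0.12 without chz1-del. The other 8 averaged between −0.08 and 0.18. A ratio against the reference leaves out the spread of the wild type itself, and any effect of the dyes was not tested. In RNA of whole cultures, a change in every cell and a change in a share of the cells cannot be told apart.

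**Figure D4:**
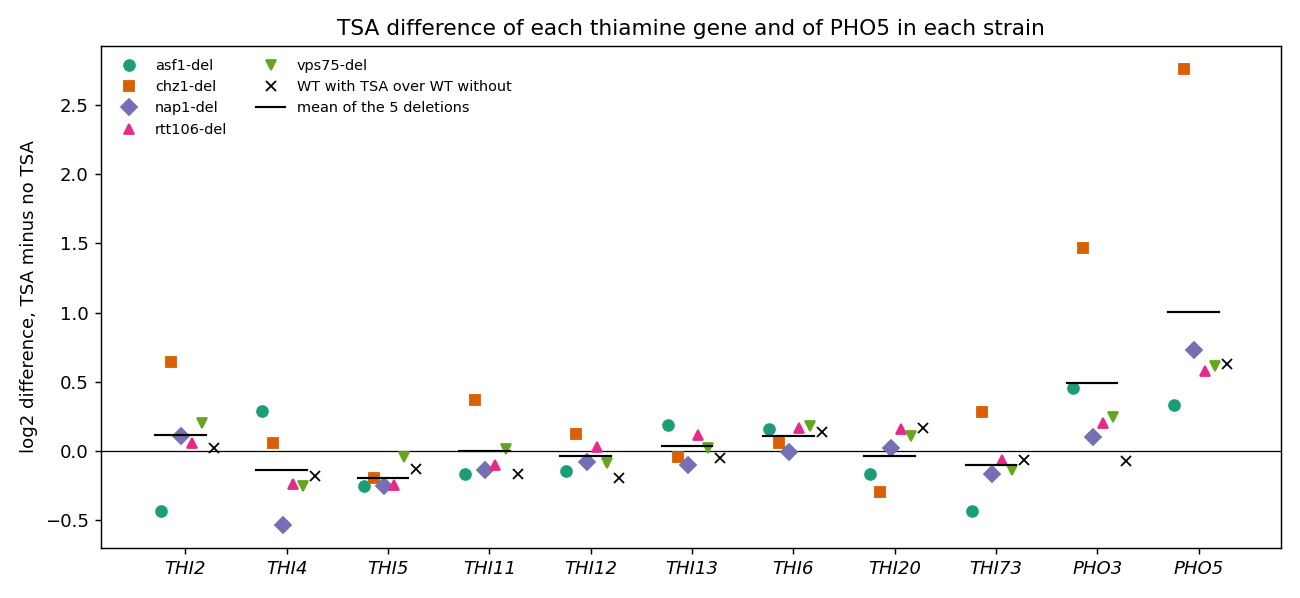
Difference with TSA minus without TSA (vertical axis, log2) of the 10 thiamine genes and PHO5 in each deletion strain (coloured symbols), their mean (line), and the ratio of wild type with TSA over untreated wild type (cross). PHO3 was above 0 in all 5 strains, with 1.46 in chz1-del and 0.10 to 0.46 in the others.

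No thiamine gene passed the test for a TSA effect. In limma's fit with strain as a block none of the 10 passed at an adjusted p under 0.05, and 0% of 5916 genes did. The lowest adjusted p of the 10 was 0.813. At an unadjusted p under 0.05 there were 2 of 10, PHO3 and THI5, against 4.29% of all genes.

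For PHO3 the TSA difference was 0.46 in asf1-del, 1.46 in chz1-del, 0.10 in nap1-del, 0.20 in rtt106-del and 0.25 in vps75-del, with a mean of 0.49 (SE 0.197, adjusted p = 0.813). All 5 were above 0, as for 4.12% of all genes, and wild type stood at −0.07. With the vps75-del arrays exchanged 4 of 5 were above 0, with a mean of 0.40 (adjusted p = 0.932). Without the chz1-del pair the mean was 0.25 (adjusted p = 0.427). PHO5 was also above 0 in all 5 strains, with 2.76 in chz1-del and 0.33 to 0.73 in the others, and stood at 0.63 in wild type.

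THI5 ran the other way, with TSA differences of −0.25 in asf1-del, −0.20 in chz1-del, −0.25 in nap1-del, −0.24 in rtt106-del and −0.04 in vps75-del, and −0.13 in wild type. The mean was −0.20 (SE 0.0740, adjusted p = 0.813), and 3.87% of all genes were below 0 in all 5 strains. With the vps75-del arrays exchanged 4 of 5 were below 0 and the mean was −0.18. The mean was −0.035 under median centring, −0.026 on the deposited log ratio and −0.051 on the series matrix. The experimental signal with TSA was undetected in asf1-del, nap1-del and vps75-del. Its near-identical relatives THI11, THI12 and THI13 averaged −0.00, −0.03 and 0.04 and had both signs among the strains.

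Among the remaining genes the mean TSA differences were −0.13 for THI4, 0.12 for THI2, 0.11 for THI6, −0.10 for THI73 and −0.04 for THI20. THI73 in rtt106-del differed by −0.06, and so its height in that strain was there with and without the drug. The differences ran from −0.43 to 0.64 for THI2 and from −0.53 to 0.29 for THI4. The experimental signal with TSA was undetected for THI2 in asf1-del, chz1-del, nap1-del and vps75-del, and for THI4 in chz1-del and nap1-del, so those differences are limits.

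Other genes of thiamine metabolism were taken from a list of 17 and a list of 11 enzymes that use thiamine pyrophosphate. The 17 are regulators, transporters, kinases and the vitamin B6 genes SNZ and SNO, of which SNZ2 lies beside THI12 and SNZ3 beside THI5. In rtt106-del against the other 4 deletions 2 of 17 were called higher and 0 lower, THI7 and SNZ1, and the median was 0.18, with 12 of 17 above 0, against 2.21% called and 48.1% above 0 over all genes. In asf1-del 1 of 17 was called, SNZ1, against 1.91% of all genes, and the median was 0.11. In chz1-del, nap1-del and vps75-del 0 of 17 were called, against 0.101% of all genes for chz1-del, 0% for nap1-del and 2.91% for vps75-del. Without the chz1-del pair 6 of 17 were higher and 2 lower in rtt106-del, against 14.4% of all genes called either way. In asf1-del 4 were higher, against 11.9%, and in nap1-del 2 were lower, against 7.35%. In vps75-del 1 was higher and 4 were lower, against 9.13%.

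THI7, the main thiamine transporter, stood at 1.27 with TSA and 0.93 without in rtt106-del. It was 0.74 with TSA and 0.89 without in asf1-del, 0.12 with TSA and −0.67 without in chz1-del, 0.09 with TSA and −0.36 without in nap1-del, and −0.01 with TSA and −0.04 without in vps75-del. Its difference in rtt106-del was 1.01 (SE 0.174, adjusted p = 0.0335), and in asf1-del 0.65 (adjusted p = 0.144). SNZ1, a gene of vitamin B6 synthesis, stood at 1.13 with TSA and 1.23 without in rtt106-del and at 1.04 with TSA and 0.92 without in asf1-del, and between −0.14 and 0.23 on all other arrays. Its differences were 0.89 in rtt106-del (SE 0.114, adjusted p = 0.0106) and 0.64 in asf1-del (SE 0.114, adjusted p = 0.0436). The regulator gene RPI1 stood at −2.58 in chz1-del without TSA and at 1.22 in vps75-del with TSA, and was called in none of the 5 contrasts with all strains. Its reference signal on that chz1-del array was 4191, against 202.1 to 457.9 on the others.

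Of the 11 enzymes 1 was called higher in rtt106-del, against 2.21% of all genes called. Only 3 of 11 were above 0 there, with a median of −0.09, against 48.1% of all genes. In asf1-del 1 was called higher (1.91% of all genes), in chz1-del 1 lower (0.101%), in nap1-del 0 (0%) and in vps75-del 1 higher (2.91%). TKL2, a minor transketolase, was higher in rtt106-del by 1.02 (SE 0.0982, adjusted p = 0.00377) and in asf1-del by 0.87 (adjusted p = 0.0135). It was lower in chz1-del by a difference of −1.03 (adjusted p = 0.0246). Its ratios were 1.10 with TSA and 1.19 without in rtt106-del, 1.08 with TSA and 0.97 without in asf1-del, and −0.56 with TSA and −0.41 without in chz1-del. KGD1, a subunit of 2-oxoglutarate dehydrogenase, was higher in vps75-del by 1.03 (SE 0.139, adjusted p = 0.00834), at 1.40 with TSA and 1.21 without. ARO10, a decarboxylase of amino acid breakdown, ranged from −2.81 in chz1-del without TSA to 2.01 in vps75-del with TSA, and was not called in any contrast with all 5 strains. Without the chz1-del pair ARO10 was called lower in asf1-del, at −1.16 (adjusted p = 0.000971), and was not called in nap1-del (−0.34, adjusted p = 0.156). Its reference signal on the chz1-del array without TSA was 2893, against 116.2 to 236.1 on the others. Without the chz1-del pair 3 of the 11 enzymes were higher and 2 lower in rtt106-del, against 14.4% of all genes called either way. In asf1-del 1 was higher and 1 lower (11.9% of all genes), in nap1-del 1 lower (7.35%), and in vps75-del 2 higher and 1 lower (9.13%). For TSA, 0 of 17 and 0 of 11 passed the test in these lists.

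**Figure D5:**
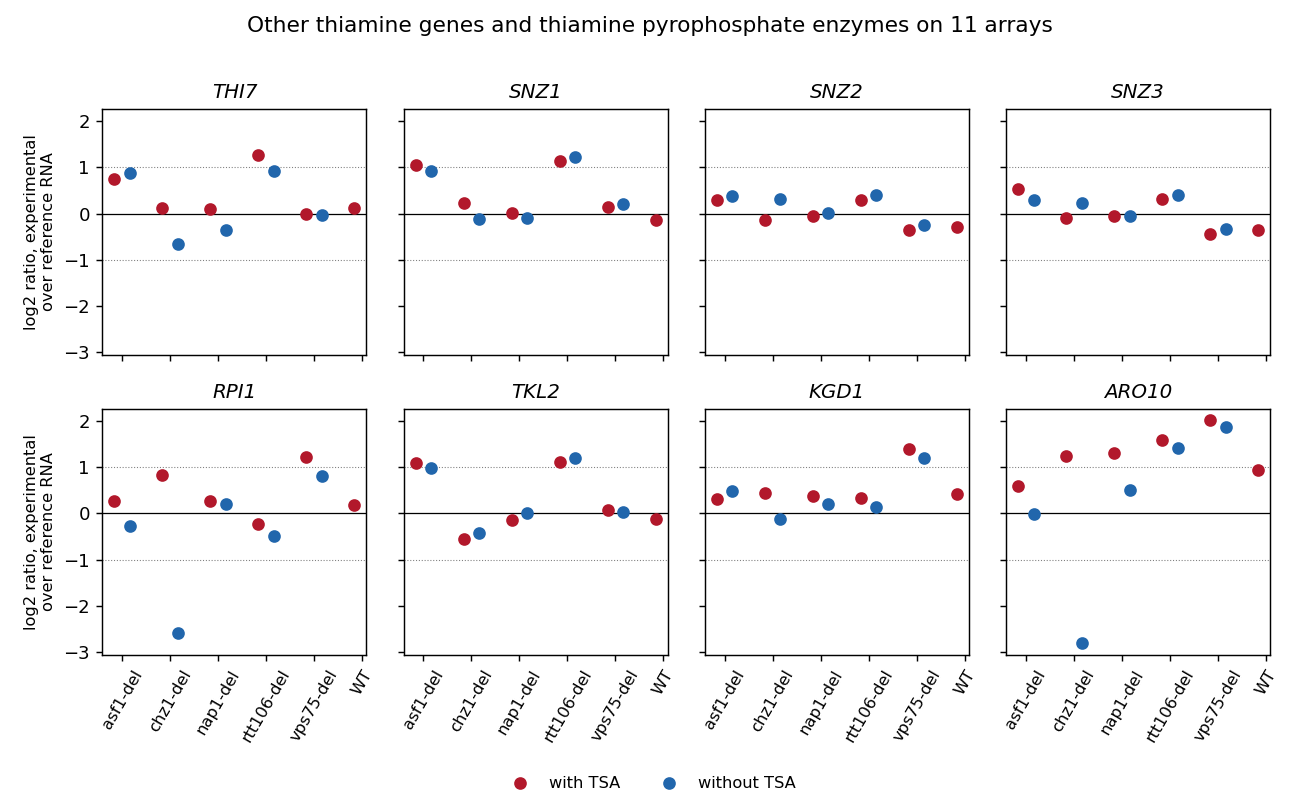
Log2 ratio of experimental over reference RNA (vertical axis) of 4 other thiamine and vitamin B6 genes, the regulator RPI1 and 3 enzymes that use thiamine pyrophosphate, by strain, with TSA (red) left of without TSA (blue). On the 4 arrays of rtt106-del and asf1-del, THI7 lay between 0.74 and 1.27, SNZ1 between 0.92 and 1.23 and TKL2 between 0.97 and 1.19, and RPI1 (−2.58) and ARO10 (−2.81) were lowest on the array of chz1-del without TSA.

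Some neighbours of the THI5 family at the chromosome ends were also above 0 in rtt106-del. SNZ3 beside THI5 stood at 0.31 with TSA and 0.39 without in rtt106-del, and SNZ2 beside THI12 at 0.29 with TSA and 0.39 without. Both were also above 0 in asf1-del, SNZ3 at 0.54 with TSA and 0.30 without, and SNZ2 at 0.28 and 0.37. In chz1-del SNZ3 stood at −0.10 with TSA and 0.23 without, and SNZ2 at −0.13 and 0.30. In nap1-del they lay between −0.06 and 0.0015. In vps75-del SNZ3 stood at −0.44 with TSA and −0.34 without, and SNZ2 at −0.35 with TSA and −0.26 without. The aryl-alcohol dehydrogenase-like gene AAD4, beside THI13, was at 0.66 with TSA and 0.65 without in rtt106-del and between −0.22 and 0.13 on all other arrays, a difference of 0.72 (SE 0.0935, adjusted p = 0.0109). AAD14 beside THI12 differed by 0.42 (adjusted p = 0.0687) and AAD10 beside THI11 by 0.37 (adjusted p = 0.151). HXT15 beside THI13 stood at 0.26 with TSA and 0.18 without in rtt106-del, and at 0.47 in asf1-del with TSA. HXT16 beside THI11 stood at −0.02 with TSA and 0.01 without in rtt106-del, and AAD6 beside THI5 stood at −0.25 with TSA and 0.04 without, a difference of 0.00 (SE 0.152, adjusted p = 0.998). The SNZ and AAD genes are themselves families of close relatives, and whether their probes tell them apart was not tested.

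Over the 11 arrays and 5527 genes detected on all of them, the genes outside the list most like THI4 were ANB1 (Pearson r = 0.96), TRP4 (0.95), BNA1 (0.94), RRM3 (0.93) and YNL033W (0.92). ANB1 encodes a translation factor made when oxygen is low, TRP4 an enzyme of tryptophan synthesis and BNA1 one of NAD synthesis. Those most like the mean of the THI5 family were LDS2 (0.98), PAU15 (0.98), PAU23 (0.98), SHC1 (0.97) and HXT5 (0.97). PAU15 and PAU23 belong to the seripauperins, a family of cell wall genes near chromosome ends, and HXT5 encodes a hexose transporter. These coefficients describe points that share a reference RNA and come in pairs of 1 strain, and the highest of 5527 were picked.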

How the data were processed

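RNA was measured on 11 arrays with 2 colours, with experimental RNA in Cy3 and reference RNA in Cy5 per the labels. The authors deposited for each array, per the file headers, each channel's intensity for 1 probe per gene, measured 2 times, a merged intensity, a log10 ratio and a signed fold (a score rounded by the authors). The series matrix deposited by the authors held log2 of that fold within 4.87e-05, with 20.8% to 51.9% of a column at exactly 0 and the 2 vps75 columns exchanged. It was not centred (medians 0, or −0.14 for asf1-del with TSA). Aligning or scaling steps before these values, and a genome build, are not given in the sources used here. No background column was among the columns, so the planned background correction and scanner flags were replaced by an added 50 and a detection limit. The labels of the TSA arrays and of chz1-del name the untreated deletion strain in channel 1, but the deleted gene was clearly present in the reference channel and wild type was used.

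Log2 ratios were normalised by loess within each repeat measurement and averaged (limma 3.58.1, R 4.3.3). A gene entered the fits if 1 of its channels or both passed detection on 50% or more of the 10 deletion arrays, which left 5916 of 6256 genes and all 10 thiamine genes; control probes (18 on 1 array) and the 5 deleted genes were left out. Of the 6256, 5756 matched the RefSeq table. Fits used lmFit and eBayes with adjusted p under 0.05: TSA over 10 arrays with strain as a block, which pairs the arrays by design, 5 untreated deletions against 0, and each deletion against the others. Deviations within a strain's pair correlated at 0.38 to 0.67, except −0.18 in chz1-del, and the lowest correlation between 2 arrays was −0.163. The fits were tested on simulated data with independent noise on each array. With 200 of 5916 genes changed by a log2 of 1, 77% to 96% were recovered, with 8 to 16 false calls. The simulated arrays held no deviations shared within a strain's pair, so the fits were not tested on pairs that correlate. With 1 array per strain and treatment, the number of arrays limits the precision, and p-values measure the spread between these arrays. All 10 genes are named. From both lists those past 2-fold on any array are named, with the nearest measured genes on each side of the 10 and the 5 genes most like THI4 and the THI5 family. Genes and lists were chosen with earlier results of these data known. Alternatives were another scaling, offset, filter, measurement, reference or table, arrays left out, and no block.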

Additional observations from a re-analysis of the deposited data

Results flagged for a closer look

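For THI73 the difference of rtt106-del from the other 4 deletions, 1.31, passed the test of the difference between strains, as did the difference of PHO3 in asf1-del, 1.36. Both are described above with their errors and with the settings that ended the call.

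Within sets of 5 values, 1 per deletion strain, 3 of 30 held a value far from the other 4 by Dixon's test (critical value 0.71), where chance marks about 1 in 20. The PHO3 TSA difference in chz1-del was 1.46, against 0.10 to 0.46 in the other strains, and its gap filled 0.741 of the range. It is the array without TSA that was low, at −1.26. Its PHO3 reference signal lay above that of all other arrays, but that array was also the brightest. The part of that reference in the difference was not tested. The THI5 TSA difference in vps75-del was −0.043, against −0.25 to −0.20 in the others, with a gap of 0.739 of the range and an undetected experimental signal with TSA. THI6 in vps75-del without TSA stood at −0.069, against 0.07 to 0.11 in the other deletions, with a gap of 0.748 of the range.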

How the results depend on the processing

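The counts of thiamine genes called for TSA and for the untreated deletions against wild type were 0 under every alternative run, with arrays left out and without the replicate block (0 with no replicate block). For each deletion against the others, 2 were called, and the count was 5 under median centring, 7 on the deposited log ratio without loess, 4 with scale normalization, 4 with normexp, 4 with the series matrix and 1 with the second measurement only. Among settings chosen after seeing the data it was 5 with the series matrix columns of vps75 assigned by content, 1 with channels below detection left out and 1 with the vps75-del arrays exchanged, where PHO3 in asf1-del lost its call. With arrays left out it ranged from 0 to 16. It was 16 without the chz1 pair, 1 without the asf1, nap1 or vps75 pair, and 0 without the rtt106 pair. Leaving out arrays of the deletion itself, chosen after seeing the data, gave 6 without its TSA array, all lower in chz1-del, and 0 without its untreated array. Of readings past 2-fold, 4 at first, there were 7 with median centring, 9 with offset 0, 22 with the deposited log ratio, 22 with the series matrix and 22 with its vps75 columns by content. The cause of these changes was not tested. Of the first 4 readings, both of PHO3 fell under 2-fold in places. Over the alternatives PHO3 ranged from −1.39 to −0.60 in chz1-del without TSA and from 0.958 to 1.42 in asf1-del with TSA. THI73 in rtt106-del stayed past 2-fold, at 1.13 to 2.00 with TSA and 1.39 to 2.04 without.

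THI73 in rtt106-del kept its call in 16 of 18 alternatives, with differences of 1.16 to 1.73 and adjusted p of 0.000193 to 0.144, and lost it where either of its arrays was left out. PHO3 in asf1-del kept it in 5 of 18, with 1.11 to 1.47 and adjusted p of 0.000152 to 0.559. Over 33 values for single genes and 567 alternatives, 487 kept their direction and side of the threshold, 38 gained a call, 15 lost it, 20 moved by more than the repeat measurements and 7 changed sign. The THI73 TSA difference of −0.10 changed sign to 0.035 (median centring), 0.061 (deposited log ratio), 0.15 (series matrix), 0.057 (its vps75 columns by content) and 0.30 with the untreated deletion strain as the reference of the TSA arrays. PHO3 in the untreated deletions ranged from −0.44 to 0.12 with arrays left out, above 0 without chz1-del, and THI73 in vps75-del from −0.57 to 0.015, above 0 without the rtt106 pair.

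Counts over all genes moved by over 1.5 times in places. For asf1-del, 113 became 236 with the deposited log ratio, 187 with the series matrix and 271 with its columns by content. For chz1-del, 6 became 17 under median centring, 31 on the deposited log ratio, 14 with offset 0, 20 with normexp and 12 with matrix columns by content. For nap1-del, 0 became 2 with median centring, 19 with scale normalization, 1 with the series matrix and 2 by content. For rtt106-del, 131 became 79 under median centring, 74 on the deposited log ratio, 50 with the series matrix, 73 by content and 62 with undetected channels left out. For vps75-del, 172 became 288 with scale normalization. Undetected signals limit what can be said of the dim genes THI2, THI12 and THI13, detected in experimental RNA on 7, 7 and 6 of 11 arrays.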
